A study of Mus musculus with 28 samples.

Results

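Wnt signalling was followed in mouse liver through 10 genes that beta-catenin is known to switch on, most of which encode proteins that act back on the pathway: Axin2, Nkd1, Lgr5, Tbx3, Sp5, Notum, Rnf43, Znrf3, Lef1 and Wif1. Every array probe whose RefSeq accession belongs to 1 of these genes was taken, whatever its value, which gave 12 probes, against 55681 probes and 20145 named genes on the whole array. Axin2 and Nkd1 had 2 probes each, and each probe is described apart because levels of different probes cannot be set against each other.

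The samples were livers of 28 male mice, 1 Agilent single-colour array per animal, in 3 experiments that each set phenobarbital (PB), a drug that activates the nuclear receptor CAR, against a control diet. CD-1 mice had 1500 ppm PB for 7 days (n = 4), against CD-1 mice on 0 ppm (n = 4). hCAR/hPXR mice, which carry humanised forms of CAR and of the related receptor PXR, had 1000 ppm PB for 7 days (n = 7), against hCAR/hPXR mice on 0 ppm (n = 7). C3H/HeNCrlCrlj mice, called C3H here, had 500 ppm PB for 27 weeks (n = 3), against C3H mice on 0 ppm (n = 3), and both C3H groups had first received 90 mg/kg of the liver carcinogen diethylnitrosamine. Strain, dose, duration and carcinogen therefore change together between the experiments and cannot be told apart. The labels call every sample liver, and they give neither the animals' ages nor, for the C3H animals, whether the piece held nodules or surrounding tissue.

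When Wnt ligands bind Frizzled receptors and LRP co-receptors, the complex that marks beta-catenin for destruction is held back, and beta-catenin enters the nucleus and acts with TCF/LEF factors. Several of the genes it switches on then restrain the pathway, so their transcripts are widely used as readouts of it. In healthy liver the pathway is active mainly in hepatocytes around the central vein, where it keeps glutamine synthetase and other pericentral genes on.

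The stretches before the transcription starts are shown for 4 of the genes with the largest differences below, because TCF/LEF factors bind DNA at sites with the core CTTTGA. Nkd1, also among the largest differences, is not shown. RefSeq promoter entries (mouse build GRCm38.p6) were matched for 6 of the 10 genes, Sp5, Lef1, Nkd1, Wif1, Rnf43 and Axin2, in 10 windows of the 250 bases before a start. Capitals mark CTTTGA or its reverse complement TCAAAG, with no other motif searched. The windows below are on the plus strand, 5′ to 3′: Sp5 at chr2:70474673-70474922, Lef1 at chr3:131156044-131156293 (1 of 4 starts), Wif1 at chr10:121033754-121034003 and Axin2 at chr11:108920099-108920348.
Sp5: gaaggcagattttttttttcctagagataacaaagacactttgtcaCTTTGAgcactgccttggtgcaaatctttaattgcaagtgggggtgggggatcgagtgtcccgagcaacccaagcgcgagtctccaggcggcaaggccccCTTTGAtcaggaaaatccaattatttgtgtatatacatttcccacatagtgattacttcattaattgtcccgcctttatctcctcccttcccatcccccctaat
Lef1: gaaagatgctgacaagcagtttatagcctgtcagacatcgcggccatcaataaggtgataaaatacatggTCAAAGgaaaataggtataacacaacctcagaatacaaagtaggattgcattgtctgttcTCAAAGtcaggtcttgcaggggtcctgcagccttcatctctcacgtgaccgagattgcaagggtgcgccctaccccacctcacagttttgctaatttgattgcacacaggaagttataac
Wif1: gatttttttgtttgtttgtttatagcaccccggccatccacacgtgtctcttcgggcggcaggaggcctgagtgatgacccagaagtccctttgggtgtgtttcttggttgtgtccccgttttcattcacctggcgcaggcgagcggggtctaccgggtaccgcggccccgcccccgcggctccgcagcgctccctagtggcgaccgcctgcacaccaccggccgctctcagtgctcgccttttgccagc
Axin2: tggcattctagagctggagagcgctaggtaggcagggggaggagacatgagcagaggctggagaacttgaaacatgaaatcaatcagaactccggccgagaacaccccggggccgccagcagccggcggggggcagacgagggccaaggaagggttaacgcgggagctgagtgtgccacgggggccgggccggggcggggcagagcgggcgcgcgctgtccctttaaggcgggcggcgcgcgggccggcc
The Sp5 window held 2 matches, which begin at -204 and -104 relative to the start, and the Lef1 window held 2, which begin at -180 and -120. The other 8 windows held none, namely those of the other Lef1 starts and of Wif1, Axin2, Nkd1 and Rnf43. The Lef1 window shown is thus the only one of its 4 with a match. Of all 32851 windows of this length in the table, 13.8% held 1 or more. A match of these letters is a description of the sequence and not a binding site.

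Levels are given as log2 of the background-subtracted signal minus the 75th percentile of the same array, so 0 lies at that percentile. A probe counts as detected on an array where the scanner software marks it well above background. Detected shares of probes were 46.1% to 70.5% on CD-1 arrays, 46.5% to 58.6% on hCAR/hPXR arrays and 41.3% to 46.0% on C3H arrays, and the brightest 1% of spots were far dimmer on CD-1 arrays (99th percentile 4019 to 6490) than on hCAR/hPXR arrays (30159 to 48010) or C3H arrays (22576 to 31394). The CAR target Cyp2b10 was 101-fold, 22.4-fold and 53.3-fold higher with PB in CD-1, hCAR/hPXR and C3H livers, with no overlap between groups in any of them. All 8 hepatocyte markers were detected on every array. All CD-1 PB arrays lay on 1 slide and all CD-1 control arrays on another, so slide and PB cannot be told apart there. In hCAR/hPXR mice, PB animal 1 shared a slide with the 7 controls and PB animals 2 to 7 lay on a second slide. The 6 C3H arrays shared 1 slide.

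In C3H livers, 9 of the 12 probes, which stand for 8 of the 10 genes, were higher with PB and 0 were lower at an adjusted p under 0.05 (limma, Benjamini-Hochberg over the 23165 probes tested), where 14.1% of all tested probes were called, 7.21% higher and 6.87% lower. The median difference over the 12 probes was 2.99 on the log2 scale, against -0.21 over all probes of the array. PB and control groups did not overlap for 11 of the 12 probes, all higher with PB, where 40.8% of tested probes did not overlap and 16.9% did so with PB higher. Of these probes 5, both of Axin2, Nkd1 A_55_P2118694, Lef1 and Wif1, entered the test only because all PB arrays detected them. When detection in both groups was required, 7 member probes were left and 5 of them were called, namely those of Nkd1 (A_55_P1967736), Lgr5, Sp5, Notum and Rnf43. All 5 were higher with PB, where 2892 of 20758 tested probes were called, 1347 higher and 1545 lower.

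**Figure D1:**
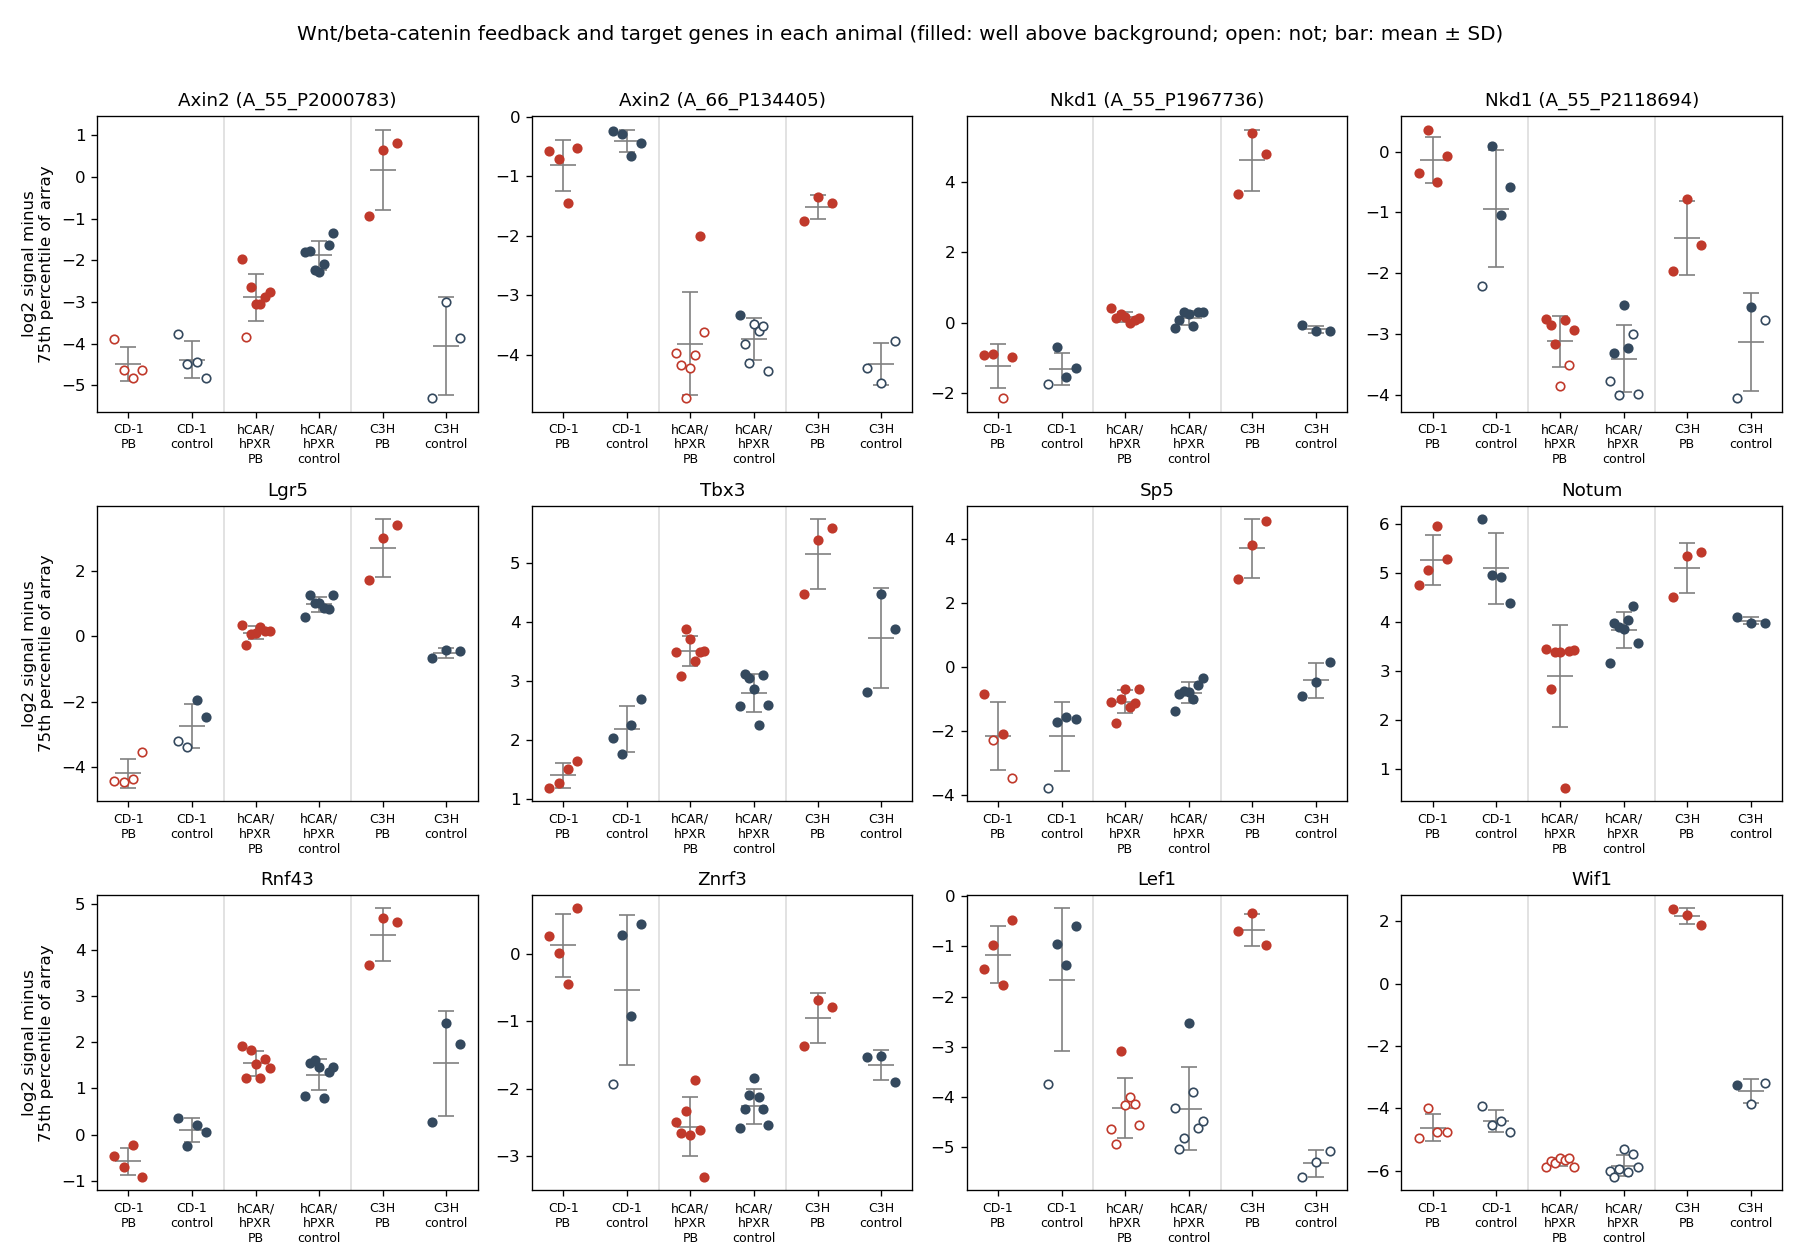
Level of each of the 12 probes in every animal (log2 signal minus the 75th percentile of the array; filled points detected, open points not, bars mean ± SD; PB in red left of control in dark blue, 4 CD-1, 7 hCAR/hPXR and 3 C3H animals per group). The 3 C3H PB animals stand above the C3H controls in every panel but that of Tbx3, where the lowest PB animal lies just under the highest control.

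Genes of intracellular brakes on the pathway, Nkd1 and Axin2, were higher with PB in C3H livers. Nkd1 encodes a protein that binds Dishevelled and dampens the signal. Its probe A_55_P1967736 read 3.66, 5.39 and 4.78 in C3H PB livers, against -0.08, -0.24 and -0.25 in C3H control livers. Every PB animal lay far above every control, and the controls lay close together. The difference was 4.80 ± 0.41 (SE), or 27.9-fold (adjusted p = 0.00229). The second Nkd1 probe, A_55_P2118694, read -1.97, -0.77 and -1.53 with PB, against -4.06, -2.56 and -2.77 in controls, of which only the second was detected. Its groups also did not overlap, but the difference of 1.71 ± 0.47 missed the threshold (adjusted p = 0.0564), and it passed when PB animal 1 was left out (1.98, adjusted p = 0.0344).

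Axin2 encodes a scaffold of the destruction complex and is the pathway's most used feedback readout. Probe A_55_P2000783 read -0.94, 0.65 and 0.80 in C3H PB livers, against -5.31, -2.99 and -3.87 in C3H control livers, none of which was detected. The fitted difference was 4.23 ± 0.69 (adjusted p = 0.0160). With each undetected control raised to the lowest detected signal of its array, Axin2 was at least 11.8-fold higher with PB. Its call was lost without control animal 3 (4.32, adjusted p = 0.0642), PB animal 2 (3.99, adjusted p = 0.0642) or PB animal 3 (3.91, adjusted p = 0.0504). The other probe, A_66_P134405, read -1.75, -1.35 and -1.44 with PB, against -4.22, -4.48 and -3.78 in controls, again with no control detected. It was at least 3.66-fold higher with PB (adjusted p = 0.00183), but under normexp background correction its difference shrank to 0.39 (adjusted p = 0.0615).

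Among secreted inhibitors the pair moved by very different amounts. Wif1 encodes a protein that binds Wnt ligands outside the cell. It read 2.39, 2.20 and 1.89 in C3H PB livers, against -3.25, -3.87 and -3.17 in C3H control livers, of which only the first was detected. The PB animals lay within 1 log2 unit of each other and well clear of all controls. The fitted difference was 5.59 ± 0.23 (adjusted p = 0.000332), and its size rests on control values of which 1 of 3 was detected. Notum encodes the enzyme that removes the lipid Wnt proteins need for activity. It read 4.51, 5.35 and 5.44 with PB, against 4.10, 3.99 and 3.98 in controls, so the groups did not overlap but PB animal 1 lay close to the controls. Notum rose by 1.08 ± 0.26, or 2.11-fold (adjusted p = 0.0412). Its call held only when PB animal 1 was the one left out (adjusted p = 0.00209) and was lost without PB animal 2 (0.95) or 3 (0.91) or without control animal 1 (1.12), 2 (1.06) or 3 (1.06), at adjusted p-values of 0.103 to 0.131.

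The next 3 genes encode membrane proteins. Lgr5 encodes the receptor for R-spondins, which strengthen Wnt signals, and marks pericentral hepatocytes in mouse liver. It read 1.70, 3.00 and 3.38 in C3H PB livers, against -0.68, -0.43 and -0.44 in C3H control livers. All PB animals lay above all controls, with PB animal 1 the lowest of the 3. The difference was 3.21 ± 0.41, or 9.25-fold (adjusted p = 0.00764). Rnf43 and Znrf3 encode membrane ubiquitin ligases that remove Frizzled receptors from the cell surface. Rnf43 read 3.67, 4.70 and 4.61 with PB, against 0.27, 2.42 and 1.95 in controls, where control animal 1 stood well under the other two. It was 6.86-fold higher (2.78 ± 0.58, adjusted p = 0.0305). That call was lost without control animal 3 (2.98, adjusted p = 0.0873), PB animal 2 (2.59, adjusted p = 0.104) or PB animal 3 (2.64, adjusted p = 0.0862). Znrf3 read -1.37, -0.68 and -0.79 with PB, against -1.53, -1.51 and -1.90 in controls. The groups did not overlap, yet the difference of 0.70 ± 0.22 missed the threshold (adjusted p = 0.0795), which it passed without PB animal 1 (0.91, adjusted p = 0.0149).

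The transcription factor genes of the set were Lef1, Sp5 and Tbx3. Lef1 encodes a DNA-binding partner of beta-catenin and is scarce in adult hepatocytes. It read -0.70, -0.33 and -0.98 in C3H PB livers, against -5.59, -5.30 and -5.07 in C3H control livers, with all PB animals and no control detected. It was at least 6.72-fold higher with PB (fitted difference 4.65 ± 0.22, adjusted p = 0.000332). Sp5 encodes a zinc-finger factor that is a direct target of beta-catenin and competes at its target genes. It read 2.76, 3.81 and 4.58 with PB, against -0.91, -0.47 and 0.17 in controls, so all PB animals lay above all controls. The difference was 4.12 ± 0.49, or 17.4-fold (adjusted p = 0.00627). Tbx3, a T-box factor and beta-catenin target of the liver, read 4.48, 5.39 and 5.60 with PB, against 2.82, 4.48 and 3.89 in controls. It was the only probe whose C3H groups overlapped, and its difference of 1.42 ± 0.48 missed the threshold (adjusted p = 0.0897), which it passed without PB animal 1 (1.76, adjusted p = 0.0419).

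C3H PB animal 1 was the lowest of the 3 PB animals in 10 of the 12 probes. Without it all 12 probes were called higher, and calls over the whole array numbered 6470 in place of 3262. Leaving out C3H control animal 1, 2 or 3 left 8, 8 and 6 of the 12 probes called, and leaving out PB animal 2 or 3 left 6 in each case, while calls over the whole array then fell to between 712 and 1386. The probes called in every one of these 6 fits were Axin2 A_66_P134405, Nkd1 A_55_P1967736, Lgr5, Sp5, Lef1 and Wif1.

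**Figure D2:**
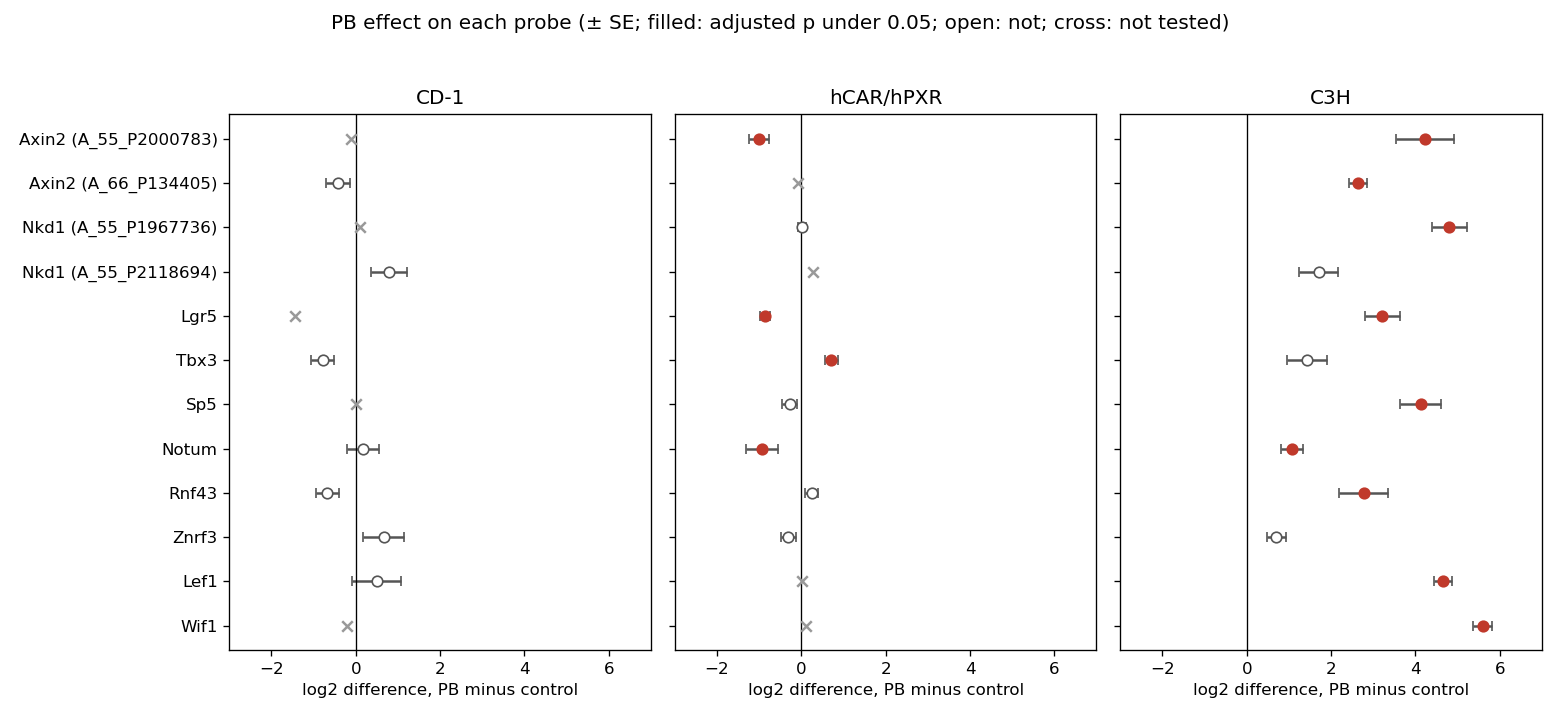
Difference of PB minus control for each of the 12 probes in CD-1, hCAR/hPXR and C3H livers (log2 scale, bars ± SE; filled red points adjusted p under 0.05, open points not, crosses not tested). The 9 filled C3H points lie between 1.08 and 5.59, whereas the hCAR/hPXR points lie between -1.01 and 0.71 and no CD-1 point is filled.

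In hCAR/hPXR livers the set did not move in 1 direction. Of 8 probes tested, 1 was higher with PB (Tbx3) and 3 were lower (Axin2 A_55_P2000783, Lgr5 and Notum), where 56% of 25910 tested probes were called, 33.9% higher and 22.1% lower. The median over all 12 probes was -0.03, against 0.05 over all probes of the array. The second slide holds PB arrays only, so a fit with the slide as a block estimates the PB difference from PB animal 1 against the 7 controls. All 4 calls were lost in that fit, where 0 of the 8 passed (limma; 2 had an unadjusted p under 0.05) and 507 probes were called over the whole array in place of 14518.

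Lgr5 was the only member whose hCAR/hPXR groups did not overlap, as was true of 19.4% of tested probes. It had a lowest, median and highest level of -0.28, 0.15 and 0.33 in PB livers, against 0.58, 1.01 and 1.26 in control livers, and its difference was -0.86 ± 0.12 (adjusted p = 5.14e-05). Within the slide that holds both groups, where PB animal 1 alone stands for PB, the Lgr5 difference was -0.64 (adjusted p = 0.331). Axin2 A_55_P2000783 had -3.85, -2.89 and -1.97 in PB livers, against -2.29, -1.79 and -1.34 in control livers, a difference of -1.01 ± 0.23 (adjusted p = 0.00200). PB animal 1 held the highest PB value and lay inside the control range, so the difference within its slide was -0.09 (adjusted p = 0.935).

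Notum had 0.61, 3.39 and 3.44 in hCAR/hPXR PB livers, against 3.16, 3.90 and 4.34 in control livers. PB animal 5 lay far under the other 6, which stood between 2.62 and 3.44. The difference of -0.94 ± 0.38 passed narrowly (adjusted p = 0.0489), stood at -0.39 with the slide as a block (adjusted p = 0.862) and held in 7 of 14 fits with 1 animal left out. It was lost without control animal 2 (-0.92), 3 (-0.93), 4 (-0.94), 5 (-0.90), 6 (-0.86) or 7 (-0.98) or PB animal 2 (-0.89), and it was -0.56 without PB animal 5. Tbx3 had 3.1, 3.50 and 3.89 in PB livers, against 2.26, 2.88 and 3.12 in control livers, with only PB animal 2 inside the control range. Its difference was 0.71 ± 0.15 (adjusted p = 0.00113) and kept its size within the slide (0.70, adjusted p = 0.416).

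The other members gave no call in hCAR/hPXR livers. Nkd1 A_55_P1967736 had the tightest estimate, 0.02 ± 0.10 (adjusted p = 0.843), with levels of -0.02 to 0.42 in PB livers and -0.15 to 0.32 in control livers. Sp5 differed by -0.28 ± 0.18 (adjusted p = 0.193), Rnf43 by 0.25 ± 0.16 (adjusted p = 0.190) and Znrf3 by -0.31 ± 0.18 (adjusted p = 0.161, called only without PB animal 5, at -0.42 and an adjusted p of 0.0350). Axin2 A_66_P134405 and Lef1 were each detected on 1 of 7 PB and 1 of 7 control arrays, Nkd1 A_55_P2118694 on 5 and 3, and Wif1 on none of either, so these 4 probes were not tested.

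In CD-1 livers 7 of the 12 probes were tested and 0 passed (limma; 2 had an unadjusted p under 0.05), where 7.88% of 32194 tested probes were called, 1.81% higher and 6.07% lower. The median over the 12 probes was -0.05, against -0.08 over all probes of the array. Tbx3 read 1.20, 1.27, 1.51 and 1.65 in PB livers, against 2.05, 1.77, 2.26 and 2.69 in control livers, so every PB animal lay under every control. Its difference was -0.78 ± 0.28 (adjusted p = 0.0995), which passed in 1 fit of all 28 arrays (adjusted p = 0.0449) and under normexp correction (-0.63, adjusted p = 0.0241). Lgr5 read -4.43, -4.45, -4.36 and -3.54 in PB livers, none detected, against -3.21, -3.38, -1.94 and -2.48 in control livers, of which the third and the fourth were detected. These groups did not overlap either, as for 19.2% of tested probes, but Lgr5 was not tested because neither group was detected throughout.

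Rnf43 in CD-1 livers read -0.46, -0.70, -0.23 and -0.92 with PB, against 0.35, -0.24, 0.21 and 0.07 in controls, and only PB animal 3 reached the control range. The difference of -0.67 ± 0.27 missed the threshold (adjusted p = 0.133) and passed under normexp correction (-0.58, adjusted p = 0.0226). Notum read 4.75, 5.07, 5.97 and 5.29 with PB, against 6.11, 4.96, 4.92 and 4.39 in controls, with full overlap and a difference of 0.17 ± 0.39 (adjusted p = 0.793), which became 0.80 (adjusted p = 0.0176) under normexp correction. The remaining tested probes differed by -0.41 ± 0.28 (Axin2 A_66_P134405, adjusted p = 0.359), 0.80 ± 0.43 (Nkd1 A_55_P2118694, adjusted p = 0.246), 0.66 ± 0.48 (Znrf3, adjusted p = 0.384) and 0.50 ± 0.58 (Lef1, adjusted p = 0.592). Axin2 A_55_P2000783 and Wif1 were detected on no CD-1 array, and Sp5 ranged from -3.45 to -0.83 with PB and from -3.76 to -1.57 in controls.

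Whether PB acted differently in 2 experiments was tested with interaction terms, from limma on the 28 arrays together. C3H minus CD-1 was called for 9 of 12 probes, all positive (14% of tested probes called, 8.85% positive), and C3H minus hCAR/hPXR for 9 of 12, all positive (9.13% called, 3.92% positive). Both comparisons use the same C3H arrays. Wif1 was called in each (adjusted p = 1.66e-11 against CD-1 and 2.42e-12 against hCAR/hPXR), but it was detected on no CD-1 or hCAR/hPXR array and entered through the C3H PB group, so no size is given. Axin2 A_55_P2000783 against CD-1, and Axin2 A_66_P134405 and Lef1 against hCAR/hPXR, also entered only through the C3H PB group. Lgr5, detected on all C3H and hCAR/hPXR arrays, had a C3H minus hCAR/hPXR difference of 4.07 ± 0.40 (adjusted p = 1.09e-07). This fit takes 1 spread per probe for all groups, whereas the Lgr5 SD was 0.88 in C3H PB and 0.20 in hCAR/hPXR PB livers. Adjusted p-values from it may therefore be too small where the C3H animals vary more. Tbx3 differed between C3H and CD-1 (2.21 ± 0.44, adjusted p = 0.00144) but not detectably between C3H and hCAR/hPXR (0.72 ± 0.39, adjusted p = 0.264). For Notum the calls were the reverse (0.90 ± 0.70, adjusted p = 0.397, against CD-1 and 2.02 ± 0.63, adjusted p = 0.0419, against hCAR/hPXR). The Notum call was lost with no filter on dim probes (adjusted p = 0.0920) and with the replicate block (adjusted p = 0.0855). Between hCAR/hPXR and CD-1 only Tbx3 was called, at 1.49 ± 0.36 (adjusted p = 0.00380), where 26.5% of tested probes were called.

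Control levels separated the experiments before any PB. In control livers 9 of 9 tested probes differed between hCAR/hPXR and CD-1 (87.9% of tested probes called), 8 of 8 between C3H and CD-1 (88.6% called) and 3 of 8 between C3H and hCAR/hPXR (48.5% called), so the first 2 counts say little about these genes in particular. Lgr5 averaged -0.52 ± 0.14 in C3H, 0.97 ± 0.24 in hCAR/hPXR and -2.76 ± 0.67 in CD-1 control livers (SD, n = 3, 7 and 4), and all 3 pairs differed (adjusted p = 5.07e-13 for hCAR/hPXR minus CD-1, 3.09e-07 for C3H minus CD-1 and 0.000120 for C3H minus hCAR/hPXR), although C3H minus CD-1 shrank to 0.45 (adjusted p = 0.0652) under normexp correction. The Axin2 probes went opposite ways. A_55_P2000783 was detected on all 7 hCAR/hPXR and no CD-1 control arrays and was at least 1.81-fold higher in hCAR/hPXR, but under normexp correction its difference was -0.12. A_66_P134405 was detected on 1 of 7 hCAR/hPXR and all 4 CD-1 control arrays and was lower in hCAR/hPXR (adjusted p = 2.17e-10). Znrf3 was lower than CD-1 in both hCAR/hPXR (-1.73 ± 0.32) and C3H control livers (-1.12 ± 0.39), as was Notum (-1.26 ± 0.40 and -1.07 ± 0.49). The Znrf3 groups overlapped in both comparisons, and its C3H minus CD-1 difference was -0.44 and not called under quantile normalization. Neither Notum difference was called under normexp correction (-0.68 and -0.82). Tbx3 was highest in C3H control livers, by 0.93 ± 0.27 over hCAR/hPXR, where the groups overlapped, and 1.54 ± 0.31 over CD-1. Under quantile normalization these differences were 0.56 and -0.16, and neither was called.

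Of the member probes 3 were called with PB in at least 1 experiment and detected on all 28 arrays, and for these the named genes with the closest course over the 6 group means were found among 10139 such probes. Closeness is the root mean square difference in log2 after each probe's own mean is removed. Tbx3 lay closest to Maged2 (0.17), Cdh2 (0.21) and Tmem184b (0.22), Notum to Nbl1 (0.26), Rhob (0.27) and Magi3 (0.31), and Rnf43 to Klf6 (0.27), Cib2 (0.29) and Nt5e (0.36). The 6 means share their arrays, and the likeness describes these means only.

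Other Wnt genes were read from 6 lists of 103 genes, 1 probe per gene, to set the 10 genes in their pathway. In C3H livers the pericentral beta-catenin targets rose with PB in 8 of 10 genes, with 0 lower and a median difference of 2.29, against -0.05 over all tested probes. Rhbg, an ammonium transporter, was 13.5-fold higher (7.77 ± 0.72 in PB and 4.02 ± 0.08 in control livers, SD, n = 3 each, adjusted p = 0.00266). Glul, which encodes glutamine synthetase, was 9.04-fold higher (adjusted p = 0.00264), the glutamate transporter gene Slc1a2 5.50-fold (adjusted p = 0.00639) and Cyp1a2, a drug-metabolising P450, 4.10-fold (adjusted p = 0.00353). Cyp2e1 and Cldn2 differed by 0.00 and 0.05 and were not called. Without control animal 1, 2 or 3 or PB animal 2, 5 of the 10 were called, and Rhbg, Glul, Slc1a2 and Cyp1a2 were called in all 6 fits with 1 animal left out.

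Among 10 other beta-catenin targets tested in C3H livers 5 rose and 2 fell, with a median of 1.56. Birc5, an inhibitor of apoptosis with a role in cell division, was 27.1-fold higher (adjusted p = 0.00183), and its 2 other probes differed by 5.41 and 4.72. Tnfrsf19, a TNF-receptor family member, was 13.8-fold higher (adjusted p = 0.00180), and the transcription factor genes Jun and Myc were 8.81-fold (adjusted p = 0.00514) and 7.15-fold higher (adjusted p = 0.00133). These 4 were called in all 6 fits with 1 animal left out. The 2 that fell were Sox9 (-2.80) and Ephb2 (-1.05). Sox9 was lost without control animal 2 or 3 or PB animal 2 or 3, and Ephb2 without control animal 1 or 3 or PB animal 2.

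Of 18 genes tested for beta-catenin, the destruction complex and nuclear partners, 2 rose and 2 fell in C3H livers (median 0.16), where 7.21% of all tested probes were called higher and 6.87% lower. Ctnnb1, the gene of beta-catenin itself, averaged 3.73 ± 0.16 in PB and 3.46 ± 0.08 in control livers (adjusted p = 0.192). Tcf7, a member of the TCF/LEF family, was 7.00-fold higher (adjusted p = 0.00672), though detected on 1 of 3 control arrays and with another probe at 1.0. Apc, a scaffold of the destruction complex, fell by 1.46 on the log2 scale (adjusted p = 0.0123), while its other probe read 0.03. Tcf7l1, a repressor of the same family, fell by 1.23 (adjusted p = 0.0238), and the Dishevelled gene Dvl2 rose by 1.03 (adjusted p = 0.0392). Tcf7 was called in all 6 fits with 1 animal left out. Apc was lost without control animal 1 or 3, and of the 6 fits Tcf7l1 and Dvl2 were called only in the one without PB animal 1.

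The remaining C3H counts stand against the same shares of 7.21% higher and 6.87% lower. Of 10 receptor genes tested in C3H livers 2 rose and 0 fell (limma; 5 had an unadjusted p under 0.05; median 0.46). Fzd10, a Frizzled receptor, was detected on all PB and no control arrays and was at least 28.9-fold higher (adjusted p = 0.000910), and Fzd1 was 1.69-fold higher (adjusted p = 0.0406). Of 9 ligand and secretion genes 2 rose and 1 fell (median -0.14): Wnt6 was at least 3.45-fold higher (adjusted p = 0.00762), Wnt5a 4.77-fold higher (adjusted p = 0.0269) and Porcn, which lipid-modifies Wnt proteins, fell by 1.38 (adjusted p = 0.0352). Of 8 other inhibitors only Apcdd1, a membrane inhibitor, passed, at least 3.38-fold higher (adjusted p = 0.00353; median of the list 0.30). Fzd10, Wnt6 and Apcdd1 were called in all 6 fits with 1 animal left out. Fzd1 and Wnt5a were called only in the one without PB animal 1, and Porcn was lost without control animal 1, 2 or 3 or PB animal 2.

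**Figure D3:**
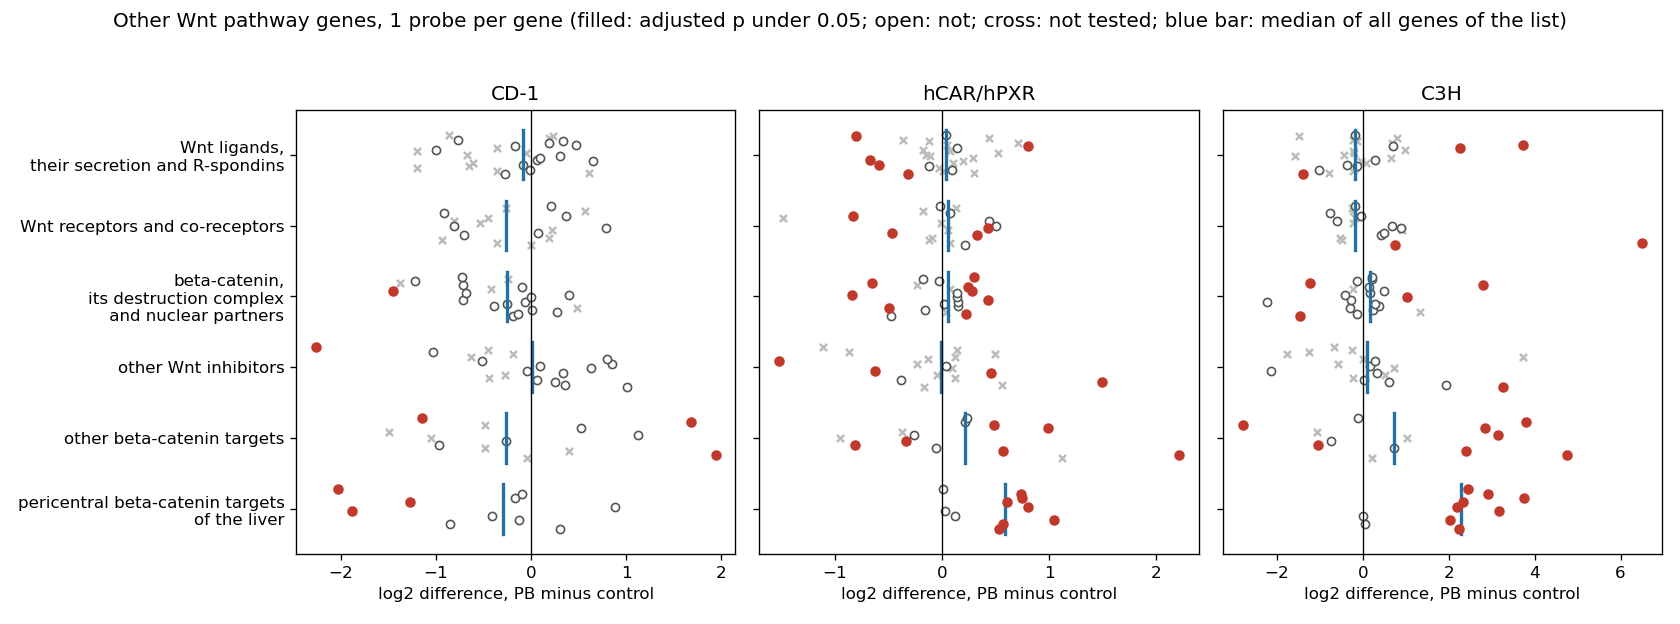
Difference of PB minus control for the genes of 6 Wnt lists in CD-1, hCAR/hPXR and C3H livers (log2 scale, 1 point per gene; filled red points adjusted p under 0.05, open points not, grey crosses not tested, blue bar the median of all genes of the list). The pericentral list has 8 filled points right of 0 in C3H livers and 3 filled points left of 0 in CD-1 livers.

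In CD-1 livers the pericentral list had 3 of 10 genes lower with PB and 0 higher, where 6.07% of tested probes were called lower and 1.81% higher (median -0.29, against -0.01 over all tested probes; 5 had an unadjusted p under 0.05, limma). Slc1a2 fell by 2.03 (adjusted p = 0.00574), Glul by 1.88 (adjusted p = 0.0101) and Oat, an ornithine-metabolising enzyme of pericentral hepatocytes, by 1.27 (adjusted p = 0.0117). Slc1a2 and Glul are 2 of the 4 pericentral genes with the smallest adjusted p in C3H livers, where both rose. No ligand or receptor gene of 13 and 7 tested was called (limma; 0 and 1 had an unadjusted p under 0.05). Gsk3b, a kinase of the destruction complex, fell by 1.45 (adjusted p = 0.0202, with other probes at -0.60 and -0.63), and the secreted inhibitor gene Sostdc1 fell by 2.26 (adjusted p = 0.00319), with another probe at -0.02. Of 7 other targets Tnfrsf19 was at least 2.23-fold higher (adjusted p = 0.0159), Birc5 3.83-fold higher (adjusted p = 0.0370, with other probes at -0.01 and 0.78) and Vegfa fell by 1.14 (adjusted p = 0.0324). Slc1a2, Glul and Sostdc1 were called in all 8 fits with 1 animal left out, whereas Oat was lost without control animal 3 and Tnfrsf19 without PB animal 2 or 4. Gsk3b was lost without control animal 3 or PB animal 1, 2 or 4, Birc5 without control animal 1 or 3 or PB animal 2, 3 or 4, and Vegfa without control animal 1, 3 or 4 or PB animal 1, 2 or 4. The 3 hepatocyte markers that fell beside them in CD-1 livers were Alb, which fell by 1.97, Apoa1, which fell by 1.32, and Tat, which fell by 1.47. Alb was called in all 8 such fits, Apoa1 in 4 and Tat in 3, and their part in the pericentral values was not tested.

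In hCAR/hPXR livers 7 of 10 pericentral genes were called higher and 0 lower (median 0.59, against 0.13), where 33.9% of all tested probes were called higher and 22.1% lower. They were led by Lect2, a secreted hepatocyte protein (1.74-fold), and Rhbg (1.68-fold), with Glul at 0.03 and Slc1a2 at 0.01. With the slide as a block, where PB animal 1 alone stands for PB, 0 were higher and 1 was lower, Slc1a2 at -0.80 (adjusted p = 0.0104). Birc5 was 4.62-fold higher (adjusted p = 1.92e-06) over all animals, and was the 1 gene of the other targets called from PB animal 1 against the controls in the block fit (2.06, adjusted p = 0.0163). The remaining calls, 1 higher and 4 lower among 9 ligand genes, 2 and 2 among 9 receptor genes, 5 and 3 among 17 genes of the destruction complex and nuclear partners, and 2 and 2 among 6 other inhibitors, stand against 56% of all tested probes called. In the block fit, again from PB animal 1, they came to 1, the receptor gene Fzd5 (-0.92, adjusted p = 0.0253).

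Markers of other cells that whole liver holds were read beside these results, since in bulk tissue fewer cells of a type and less RNA per cell cannot be told apart. In C3H livers 5 of 8 hepatocyte markers fell and 0 rose with PB, with a summed log2 level of 12.9 to 13.2 in PB and 13.5 to 13.6 in control livers. With 1 animal left out, the count of lower hepatocyte markers ranged from 0 (without control animal 1, 2 or 3 or PB animal 2) to 7. Of 10 lymphocyte markers 6 were detected on no PB array, Cd3g, Cd8a, Cd79a and Ms4a1 among them, and 5 on no control array, and the summed level was 3.88 to 5.17 in PB and 5.54 to 6.03 in control livers. Of the 4 tested 1 was called, Ccr7, a chemokine receptor of lymphocytes, which was detected on all PB and no control arrays and was at least 1.90-fold higher (adjusted p = 0.0174), a call lost without control animal 1 or 3 or PB animal 2 or 3. Of 6 bile duct markers 3 were tested and 1 was called, Krt19, which was 7.44-fold higher (adjusted p = 0.0196, lost without control animal 1, 2 or 3 or PB animal 2). The median difference was 0.05 over the 3 tested and -0.77 over all 6. Epcam and Cftr were detected on no C3H array, and Krt7 on no PB array. Summed endothelial levels were 6.45 to 6.94 in PB and 7.13 to 7.27 in control livers, with Lyve1 higher and Kdr lower, both called in only 1 of 6 fits with 1 animal left out, the one without PB animal 1, and 0 stellate and 0 Kupffer cell markers passed (limma; 3 and 2 had an unadjusted p under 0.05). The part of these marker lists in the Wnt gene values was not tested.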

How the data were processed

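Per the file headers, the deposited scanner files hold intensity values from Agilent Feature Extraction 10.7.3.1 in 1 colour: a background-subtracted, detrended signal per spot, not normalized between arrays, and median spot and local background brightness. The authors' deposited value table holds log2 values, each array's column being its log2 processed signal minus a constant (all values within 0.01), which lay -0.0233 to 0.0102 from the 75th percentile used here. Column medians ran from -3.86 to -1.30.

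Outlier spots (109 to 430 per array) were left out, replicate spots averaged, and each array's 75th percentile over 55681 non-control probes subtracted. The scanner files name no genes, so RefSeq accessions named 26582 probes with 20145 symbols (GRCm38.p6) and left 29099 unnamed. A probe was tested where every array of 1 or more groups detected it, by limma 3.58.1 in R 4.3.3 (two-sided, Benjamini-Hochberg over all tested probes, threshold 0.05; checked on simulated data). Array number limits the precision, and p-values set a difference between groups against the spread between the animals of a group. In fits of all 28 arrays 1 such spread per probe is shared by the 6 groups. They do not account for slide differences where PB and control arrays lay on different slides.

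Normexp (offset 50) used median brightness, where the mean had been planned. Other alternatives were quantile normalization, the deposited log2 table, other detection filters, 1 probe per gene, 1 fit of all arrays, replicate and slide blocks, and leaving out each animal. Genes named beside the 10 are Cyp2b10, up to 4 called genes per list and comparison by adjusted p, and 3 nearest genes per eligible probe. Others, namely Ctnnb1, Cyp2e1, Cldn2, Sox9, Ephb2 and the markers named for detection, were added after their values were seen. The members and lists were chosen with earlier results of these data known.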

Additional observations from a re-analysis of the deposited data

Results flagged for a closer look

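In 5 of 48 groups of 4 to 7 animals 1 animal stood far from the rest, where chance flags about 1 in 20 groups. Notum read 0.61 in hCAR/hPXR PB animal 5, and Axin2 probe A_66_P134405 read -2.01 in hCAR/hPXR PB animal 6, the only PB animal there in which it was detected. Nkd1 probe A_55_P1967736 read -2.15 in CD-1 PB animal 3, Lgr5 read -3.54 in CD-1 PB animal 4 and Sp5 read -3.76 in CD-1 control animal 1, and none of these 3 values was well above background.

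The PB effect differed between experiments, by interaction terms from limma on the 28 arrays together, in 19 comparisons. Of all tested probes 14% were called for C3H minus CD-1, 9.13% for C3H minus hCAR/hPXR and 26.5% for hCAR/hPXR minus CD-1. C3H minus CD-1 was 4.34 and 3.06 for the Axin2 probes A_55_P2000783 and A_66_P134405, 4.71 for Nkd1 A_55_P1967736, 4.65 for Lgr5, 2.21 for Tbx3, 4.12 for Sp5, 3.45 for Rnf43, 4.15 for Lef1 and 5.81 for Wif1, at adjusted p-values of 1.66e-11 to 0.00144. C3H minus hCAR/hPXR was 5.23 and 2.73 for the same Axin2 probes, 4.78 for Nkd1, 4.07 for Lgr5, 4.40 for Sp5, 2.02 for Notum, 2.53 for Rnf43, 4.64 for Lef1 and 5.48 for Wif1, at 2.42e-12 to 0.0419. hCAR/hPXR minus CD-1 was 1.49 for Tbx3 (adjusted p = 0.00380). The Wif1 values rest on levels not above background in all CD-1 and hCAR/hPXR animals, and their size cannot be read as a measured difference. The same holds for Axin2 A_55_P2000783 against CD-1, which was detected on no CD-1 or C3H control array. Axin2 A_66_P134405 and Lef1 were each detected on 1 of 7 PB and 1 of 7 control hCAR/hPXR arrays and no C3H control array, so their sizes depend on the floor. Under normexp correction A_66_P134405 differed by 0.42 against CD-1 and 0.36 against hCAR/hPXR and was not called. Each experiment lay on slides of its own, so slide and experiment cannot be told apart here. The fit shares 1 spread per probe over all groups, so its adjusted p-values may be too small where the C3H animals vary more.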

How the results depend on the processing

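In C3H livers the tested probes kept their positive sign under every setting tried. Of 12 tested, 10 were called with quantile normalization or 1 fit of all arrays, 9 with the deposited table, 8 with normexp correction and 6 with no filter. With 1 probe per gene 8 of 10 tested were called, and with detection in both groups 5 of 7. Over the array 3267 of 23165 probes were called with quantile normalization, 3469 with 1 fit of all arrays, 3246 with the deposited table and 2899 with normexp correction. With no filter 655 of 55681 were called, with 1 probe per gene 2682 of 18273 and with detection in both groups 2892 of 20758. Leaving out 1 animal gave 6 to 12 called in C3H (712 to 6470 over the array), 3 to 5 in hCAR/hPXR (13386 to 15268) and 0 to 0 in CD-1 livers (1227 to 2795). In hCAR/hPXR livers the fits with the slide as a block and within the controls' slide were both estimated from PB animal 1 alone. There Axin2 A_55_P2000783 differed by -0.09, Lgr5 by -0.64, Notum by -0.39 and Tbx3 by 0.70. In CD-1 livers 3 of 7 tested were called with normexp correction (1 higher, 2 lower), where 5837 of 32194 probes were called over the array. The fit of all arrays called 1 of 7, where 8168 of 32194 were called.

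For the difference of the PB effect between hCAR/hPXR and CD-1, 3 probes were called with quantile normalization, 3 with normexp correction and 2 with the replicate block, against 1. Over the array 11129, 13487 and 7684 of 37037 probes were then called, against 9806. Control levels of C3H against CD-1 gave 4 calls under normexp correction, against 8, where 24218 of 28641 tested probes were called, against 25377. Control-level differences that changed sign were those of Axin2 A_55_P2000783 under normexp correction (-0.12 for hCAR/hPXR minus CD-1, 0.033 for C3H minus hCAR/hPXR) and of Tbx3 under quantile normalization (-0.72 for hCAR/hPXR minus CD-1, -0.16 for C3H minus CD-1). The cause was not tested. Normexp correction moved the median of all control-level differences from 0.30 to -0.11 for hCAR/hPXR minus CD-1 and from 0.37 to 0.07 for C3H minus CD-1. Higher calls made up 23.0% of CD-1 calls, and 33.5% with quantile normalization.

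Replicate numbers showed no clear pairing in CD-1 or hCAR/hPXR mice, where same-numbered animals correlated at -0.45 to 0.19 and -0.14 to 0.27. In C3H mice they correlated at 0.09 to 0.20 and all 3 correlated best with their own number, so pairing was not settled there. With the replicate block 0, 3 and 10 member probes were called in CD-1, hCAR/hPXR and C3H livers. Over the array 1412, 14198 and 1873 probes were called, against 2536, 14518 and 3262. Levels near background limit Axin2, Lef1, Wif1 and the second Nkd1 probe, whose folds depend on the floor.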
